A study of Mus musculus with 2 samples.

Results

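Heat shock chaperones were followed across the immune cells of mouse colon tissue through 9 of the 30905 genes in the count tables. The 9 genes are Hspa1a, Hspa1b, Dnajb1, Hsph1, Hspa8, Hsp90aa1, Hspd1, Hspe1 and Hspb1. They were selected by symbol from a list, and all 9 were found. The list was drawn up with earlier results of these same counts known, including their level in a subset of B cells and their lower level in B cells of the fasting-mimicking diet library. Those values are therefore given as a description.

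Chaperones bind unfolded or partly folded proteins and keep them from clumping while they fold. Many of their genes are switched on together by heat shock factor 1 (Hsf1), which is held inactive by chaperones in resting cells and is released when unfolded proteins accumulate. In immune cells the same genes are known to respond to fever, to activation and to the warming and handling of tissue during cell isolation.

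The tissue came from male C57BL/6 mice that received the carcinogen azoxymethane (AOM) at 12 mg/kg, then dextran sodium sulfate (DSS) at 2.5%, an agent toxic to the gut lining, in 3 cycles. A cycle lasted for 7 days on DSS followed by 14 on water. One group ate ad libitum, and the other was put on a fasting-mimicking diet (FMD) from cycle 2 on, meant to give the body the state of a fast without withholding all food. AOM and DSS were thus common to both groups, and mice without them were not analysed here. The tissue is labelled colorectal cancer tissue, while the text on extraction also names normal colon, so the tissue is called colon tissue below. It was digested at 37 °C, cleared on a Percoll density gradient and sorted for CD45, the surface protein of leukocytes. Each diet had 1 library, pooled from 4 mice, made with 10x Genomics 3′ V3 chemistry. Neither diet had a replicate, so no test between diets was possible. A difference below is one between 2 libraries, and brackets hold 95% intervals for counting error only, which do not cover differences between mice or the clumping of molecules in a few cells.

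After filtering, 4870 cells of the ad libitum library and 4624 of the FMD library were kept, with medians of 5508 and 5742.5 unique molecular identifiers (UMIs, each counting 1 captured transcript). The CD45 gene Ptprc was detected in 92.0% and 93.5% of cells. The fibroblast gene Col1a1 had 3 and 1 UMIs, and the epithelial gene Epcam had 397 and 209. The libraries shared 7 cell barcodes. Cells were grouped without using the 9 genes or the other heat shock lists. Other genes that vary with the members over cells were not left out, so levels by group are not independent of the grouping. B-like cells were the largest class, with 3020 and 2703 cells. The 4 named T cell classes (helper or naive, regulatory, CD8 and gamma delta T-like) held 1150 and 1201 cells, a further T cell cluster with natural killer receptor genes that stayed unnamed held 155 and 143, macrophage or dendritic-like cells 128 and 169, and neutrophil-like cells 72 and 55. The 9 genes together had 175854 UMIs in the ad libitum library and 147681 in the FMD library, 0.528% and 0.461% of all UMIs. Levels are counts per 1000000 (CPM), UMIs of a gene over those outside immunoglobulin and mitochondrial genes, summed over the cells of a class. They compare 1 gene between cell groups, not one gene with another. Levels for T cell classes together are those of the 4 named classes, without the unnamed cluster. Ratios set FMD over ad libitum on the log2 scale.

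Hspa1a and Hspa1b encode the stress-inducible HSP70, a chaperone that grips exposed stretches of unfolded proteins. In the mouse assembly GRCm38 both are genes of 1 exon on the minus strand of chromosome 17, Hspa1a at chr17:34969190-34972156 and Hspa1b at chr17:34956436-34959238, 9951 bases apart. Their coding sequences are 99.43% identical (1915 of 1926 bases), while the last 300 bases of their transcripts, where 3′ libraries read, are 49.85% identical. How the counting treated reads that fit both is not given in the sources used here, so the split between them is uncertain and their sum is given as well. The upstream sequences are shown because the members were high in the same B-like cells. Of the 9 members, 7 had promoter windows in the RefSeq table (GRCm38.p6), and Hspa8 and Hsp90aa1 are named only. The heat shock element, the binding site of Hsf1, is built of inverted 5-base units. It was searched in the 250 bases upstream of each start as GAANNTTC or TTCNNGAA, each of which reads the same on both strands. Either occurs in 12.84% of 32851 windows of that length. The longer form, with 3 such units in a row in either order, occurs in 0.47%. The 160 bases before the start of Hspa1a (chr17:34972157-34972316, minus strand) and Hspa1b (chr17:34959239-34959398, minus strand), with the match in capitals, read 5′ to 3′:
Hspa1a: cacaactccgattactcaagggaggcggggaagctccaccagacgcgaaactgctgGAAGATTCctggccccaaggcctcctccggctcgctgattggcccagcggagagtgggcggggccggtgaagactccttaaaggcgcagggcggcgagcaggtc
Hspa1b: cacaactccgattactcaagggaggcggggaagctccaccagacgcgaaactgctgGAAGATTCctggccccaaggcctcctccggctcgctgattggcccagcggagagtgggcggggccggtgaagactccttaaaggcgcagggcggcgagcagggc
Counted from 1 at the 5′ end with Hspa1a as the reference, these stretches differ only by T159G, and 3 of the full 250 upstream bases differ. The match begins 104 bases before the start in both genes.

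Hspb1 encodes the small heat shock protein HSP27, which holds unfolded clients without using ATP. It lies at chr5:135887919-135889563 on the plus strand with 2 exons. Its upstream stretch (chr5:135887759-135887918, plus strand) holds 2 matches, which begin 117 and 97 bases before the start:
Hspb1: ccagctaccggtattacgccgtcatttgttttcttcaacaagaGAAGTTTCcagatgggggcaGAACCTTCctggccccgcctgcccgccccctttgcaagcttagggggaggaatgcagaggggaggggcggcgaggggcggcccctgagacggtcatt
Hsph1 encodes HSP110, which resets HSP70 for its next cycle, and lies at chr5:149614287-149636376 on the minus strand with 18 exons. Hspd1 and Hspe1 encode HSP60 and HSP10, the barrel and lid of the mitochondrial folding chamber, and are neighbours on chromosome 1. Hspd1 lies at chr1:55077835-55088243 on the minus strand with 12 exons, and Hspe1 at chr1:55088132-55091307 on the plus strand with 4. One annotated start of Hspd1 and that of Hspe1 lie 216 bases apart and point away from each other. For Hsph1 (chr5:149636351-149636380, minus strand) and Hspe1 (chr1:55088053-55088082, plus strand), 30 bases around the matches are shown:
Hsph1: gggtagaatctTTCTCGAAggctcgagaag
Hspe1: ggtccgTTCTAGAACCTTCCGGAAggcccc
The match in Hsph1 begins 33 bases before a RefSeq start. Both this RefSeq start and the match lie inside the gene span given above, which comes from the GRCm38 annotation and begins further upstream. The run in Hspe1 is made of 3 overlapping matches and holds the form with 3 units, and it lies upstream of that start of Hspd1 as well. The window of the other annotated start of Hspd1 had no match. Neither window of Dnajb1 had a match. Dnajb1 encodes an HSP40 that hands clients to HSP70, and lies at chr8:83608193-83612653 on the plus strand with 3 exons. Hspa8 encodes the constitutive HSP70 (chr9:40800984-40810087, plus strand, 9 exons), and Hsp90aa1 the inducible HSP90 alpha (chr12:110690605-110702728, minus strand, 11 exons), which matures kinases and receptors. A match is a run of letters and does not show that a factor binds there.

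Across cell classes, the inducible HSP70 genes were found in lymphocytes and in macrophage or dendritic-like cells, and were lowest in neutrophil-like cells. The comparison took 10 classes, those of 30 cells or more in both libraries. Hspa1a reached 737 CPM in B-like cells of the ad libitum library, 806 in helper or naive T-like cells, 689 in CD8 T-like cells and 582 in macrophage or dendritic-like cells. In the FMD library the same classes had 422, 661, 607 and 538. The highest class was plasma-like cells in the ad libitum library (1191) and helper or naive T-like cells in the FMD library (661). Neutrophil-like cells had 64.5 (20 UMIs) and 19.7 (4 UMIs), and the highest class exceeded them 18.5-fold [11.9, 30.3] in the ad libitum library. In the ad libitum library plasma-like cells stood apart from the next class beyond counting error, while helper or naive T-like cells and the unnamed T cluster had overlapping intervals. A single plasma-like cell held 352 of the 1745 Hspa1a UMIs of that class, and 47 of its 93 cells had any. In the FMD library the intervals of the highest classes overlapped from each to the next.

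**Figure D1:**
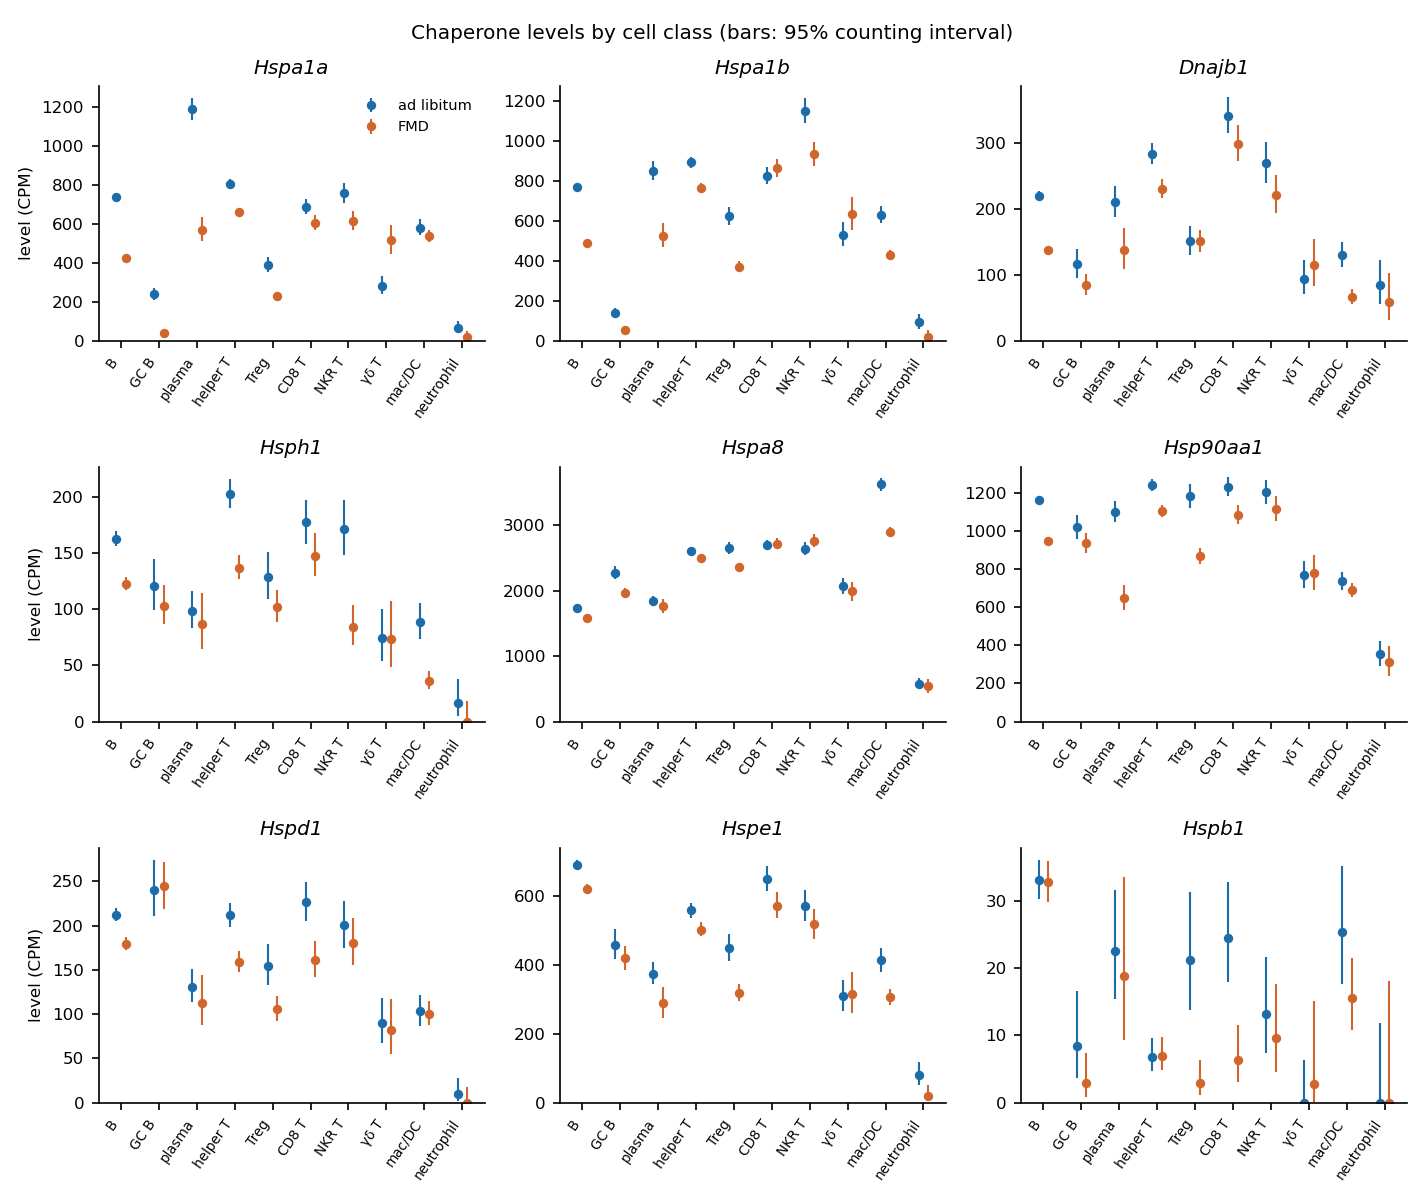
Level of each of the 9 chaperone genes (vertical axis, CPM, from 0) in the 10 cell classes compared; points are the ad libitum (blue) and FMD (orange) libraries and bars are 95% counting intervals. Neutrophils lie lowest in each panel, level at 0 with γδ T for Hspb1 in the ad libitum library, and B-like cells lie highest for Hspe1 and Hspb1 (GC, germinal center; NKR T, unnamed T cluster with natural killer receptor genes; mac/DC, macrophage or dendritic).

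Hspa1b followed a similar course. It was highest in the unnamed T cluster, at 1149 and 933. In the FMD library the interval of this cluster overlapped that of CD8 T-like cells, which came next. B-like cells had 769 and 486. Its partner Dnajb1 was highest in CD8 T-like cells (342 and 299), against 219 and 137 in B-like cells and 129 and 66.1 in macrophage or dendritic-like cells. Hsph1 was highest in helper or naive T-like cells of the ad libitum library (203) and in CD8 T-like cells of the FMD library (148). The unnamed T cluster thus took the top place for Hspa1b, and named T cell classes took it for both helpers of HSP70, in both libraries. For Hsph1 the top place was not apart from the next class beyond counting error, since helper or naive T-like and CD8 T-like cells had overlapping intervals.

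The constitutive Hspa8 had another order. Macrophage or dendritic-like cells were highest in both libraries, at 3622 and 2894 CPM. T cell classes together had 2593 and 2479, and B-like cells had 1736 and 1576, second lowest above neutrophil-like cells (571 and 535). Hsp90aa1 was highest in helper or naive T-like cells of the ad libitum library (1239) and in the unnamed T cluster of the FMD library (1114), and B-like cells had 1162 and 947. The intervals of these T cell classes overlapped. Neutrophil-like cells were lowest there too, at 351 and 309.

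The mitochondrial pair differed in where it was highest. Hspd1 was highest in germinal center B-like cells, dividing B cells that refine antibodies, at 241 and 244 CPM, and B-like cells had 212 and 179. In the ad libitum library the germinal center interval [211, 274] overlapped those of CD8 T-like and B-like cells, and in the FMD library it lay above them. The unnamed T cluster came next after germinal center B-like cells in the FMD library, and their intervals were not compared. Hspe1 was highest in B-like cells, at 693 and 622, against 547 and 465 in T cell classes together. CD8 T-like cells came next, and their intervals [615, 689] and [537, 612] overlapped those of B-like cells, [680, 706] and [609, 635]. Hspb1 was highest in B-like cells as well, at 33.2 and 32.9 (516 and 469 UMIs), against 12.3 and 5.73 in T cell classes (102 and 50 UMIs). Within a library, B-like cells exceeded T cells 2.69-fold and 5.73-fold for Hspb1. In the ad libitum library the interval of Hspb1 in B-like cells [30.4, 36.1] overlapped that of macrophage or dendritic-like cells [17.7, 35.3]. In the latter 1 cell held 30 of the 35 UMIs. The intervals of CD8 T-like (45 UMIs), plasma-like (33) and regulatory T-like cells (25) overlapped that of B-like cells as well. In the FMD library the interval of plasma-like cells (11 UMIs) did so. The order of B and T cells turned between libraries for Hspa1a, where the log2 ratio of B-like over T cells was 0.11 in the ad libitum library and −0.36 in the FMD library. For Hspa1b the ratio was −0.08 and −0.49. For the pair summed it was 0.01 [−0.02, 0.04] and −0.43, so the turn rests on the uncertain split between them. For the 9 genes summed it was −0.18 and −0.33.

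Within B-like cells the 9 genes were concentrated in 1 cluster. The B-like cells fell into 8 clusters, each named here by 2 of its leading genes outside the heat shock lists. Hemoglobin genes are left out of these names, although Hbb-bs, Hba-a1 and Hba-a2 head the Apoe Plac8 cluster. A single FMD cell of that cluster held 1105 of the 1106 Hbb-bs UMIs and all 537 Hba-a1 UMIs of B-like cells in its library. The 11 markers of fibroblasts, endothelium and red blood cells summed to 62.0 and 518 CPM in this cluster and to between 49.2 and 176 in the other clusters, and Col1a1, Col3a1, Dcn and Kdr had no UMI in B-like cells. The cluster led by Jun and Klf4, which are transcription factors of the immediate early response, was the highest of the 8 for all 9 members in both libraries. It held 697 and 448 cells. Its leading genes in full were Hspa1a, Hspa1b, Dnajb1, Jun, Hsph1 and Dnaja1, although the first 3 and the last 2 had no part in the clustering. Jun was not left out of the clustering, and it varied with the members over B-like cells. Median UMIs per cell were 4926 and 4880 in this cluster and 5076.5 and 5221 in all B-like cells. The mitochondrial share was 5.11% and 5.24%, against 5.18% and 5.26%.

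In the Jun Klf4 cluster Hspa1a reached 2415 and 1921 CPM, and Hspa1b reached 2467 and 1975. The next cluster for Hspa1a lay 2.52-fold and 3.18-fold lower, and in the ad libitum library 1 cell held 160 of the 321 Hspa1a UMIs of that next cluster. Dnajb1 had 554 and 387 there, Hsph1 368 and 358, and Hsp90aa1 2207 and 2071. The gap was narrower for the constitutive Hspa8, at 2533 and 2485, which exceeded the next cluster 1.42-fold and 1.33-fold. Hspd1 had 371 and 318, Hspe1 1077 and 992, and Hspb1 96.6 and 131. All members summed came to 12088 and 10639 in this cluster. In the other 7 clusters the sum ran from 2991 to 5867 in the ad libitum library and from 2444 to 4635 in the FMD library.

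**Figure D2:**
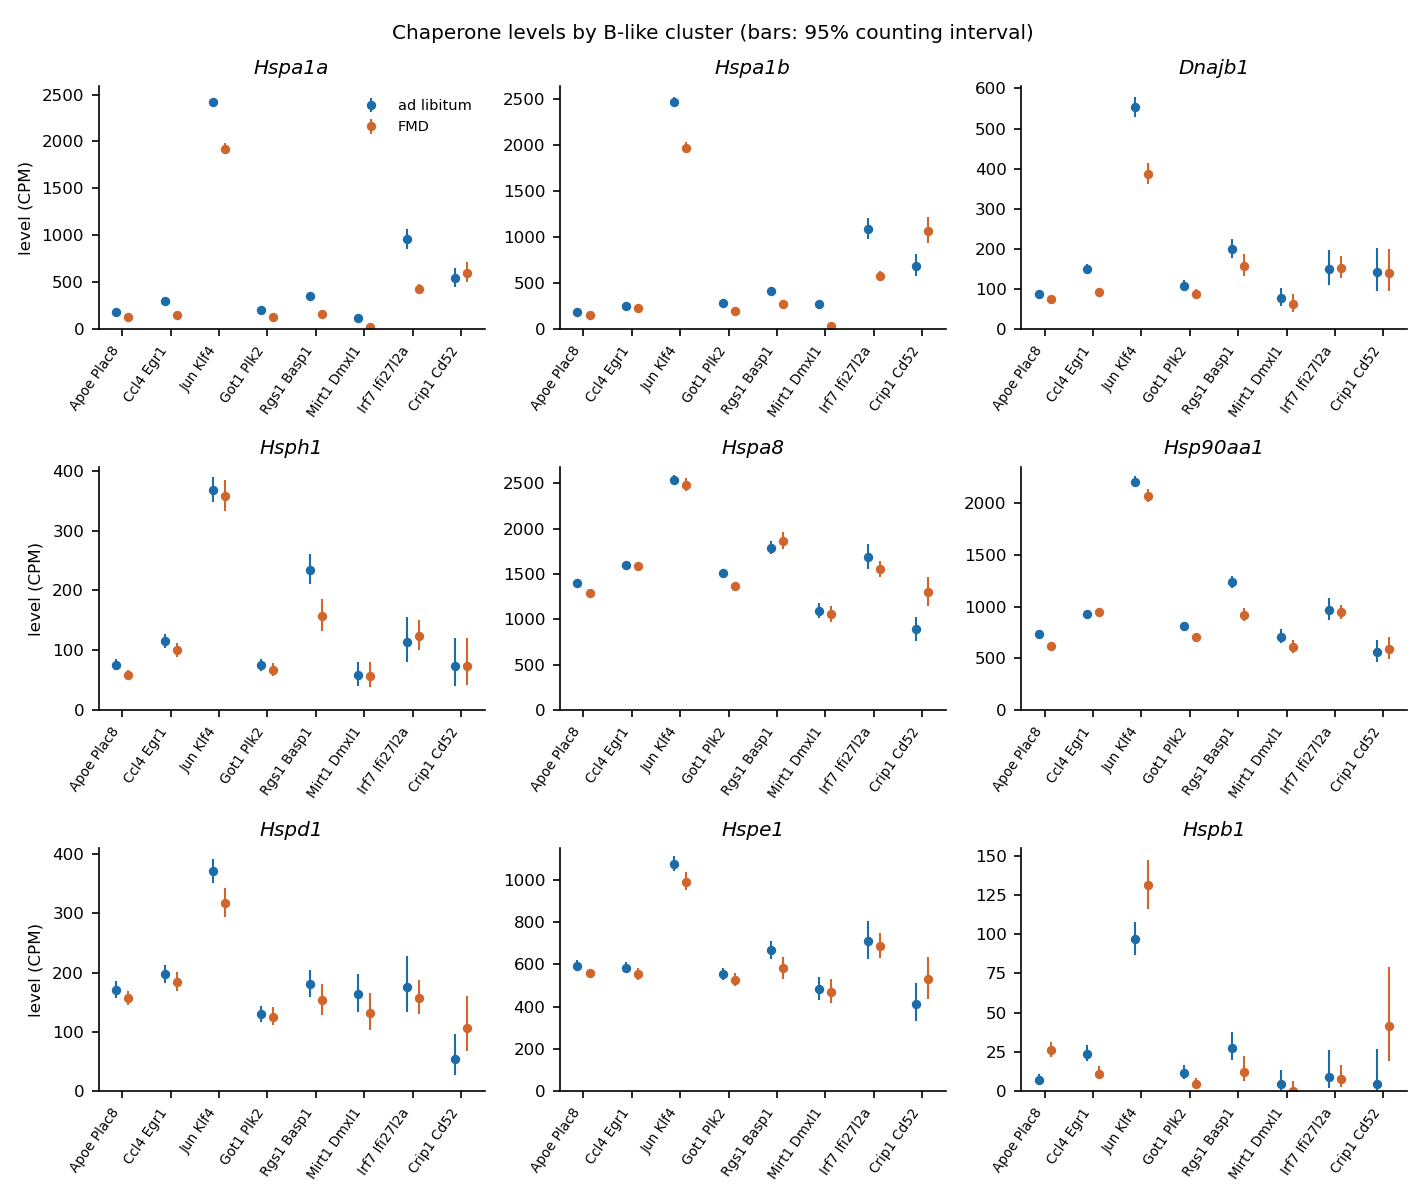
Level of each of the 9 genes (vertical axis, CPM, from 0) in the 8 B-like clusters, each labelled by 2 leading genes, in the ad libitum (blue) and FMD (orange) libraries, with 95% counting intervals. The Jun Klf4 cluster lies above the other 7 in every panel, at 2415 and 1921 for Hspa1a.

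The other clusters differed among themselves mainly in the inducible HSP70 genes. Hspa1a had 959 and 432 CPM in the interferon gene cluster led by Irf7 and Ifi27l2a, and 541 and 604 in the cluster led by Crip1 and Cd52. Without the top cell of each library the levels of the interferon gene cluster were 487 and 277 and those of the Crip1 Cd52 cluster 468 and 516. It had 357 and 165 in the cluster led by Rgs1 and Basp1, and 304 and 149 in the cluster led by Ccl4 and Egr1, which carries other immediate early genes. The remaining clusters lay at or below 202. The lowest, led by Mirt1 and Dmxl1, had 121 (77 UMIs) and 19.6 (11 UMIs). The Ccl4 Egr1 and Jun Klf4 clusters thus stood far apart in Hspa1a, although the summed level of 23 immediate early genes was 13532 and 11905 in the Ccl4 Egr1 cluster and 15695 and 14479 in the Jun Klf4 cluster.

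The Jun Klf4 cluster held 71.7% and 67.5% of all Hspa1a UMIs of B-like cells with 21.9% and 14.9% of their UMIs. For Hspa8 it held 31.9% and 23.4%. The lists of other folding systems did not all share this. The TRiC chaperonin, which folds actin and tubulin in the cytosol, had a summed level of 1167 and 1113 in the cluster and 1219 and 1232 in all B-like cells. The chaperones of the endoplasmic reticulum (ER), which fold secreted proteins, had 3446 and 3601 against 3963 and 4144. The list of 39 cytosolic co-chaperones and other heat shock genes was higher in the cluster, at 11905 and 11618 against 9088 and 8660.

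Single cells were compared after thinning each to 1000 UMIs, so that depth does not set the share. A UMI of Hspa1a or Hspa1b was seen in 25.3% [23.8, 26.9] of B-like cells in the ad libitum library and 18.2% [16.8, 19.8] in the FMD library. Without thinning the shares were 38.8% and 29.6%. In the 4 named T cell classes 31.6% and 33.2% had a UMI. Among B-like cells the share was 56.5% and 50.7% in the Jun Klf4 cluster and 12.9% and 7.00% in the cluster led by Apoe and Plac8. Neutrophil-like cells had the lowest class level, with 4 of 69 cells (5.80%) and 2 of 51 (3.92%), at median depths of 3980 and 3683 UMIs. No class can be taken to lack these genes, so the part of free RNA in these shares was not measured.

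A few cells carried most of the inducible HSP70. In thinned B-like cells, 74.7% and 81.8% had no Hspa1a or Hspa1b UMI. At the other end, 59 cells (1.96%) of the ad libitum library had 20 or more per 1000 UMIs and held 45.4% of these UMIs, and 28 cells (1.04%) of the FMD library held 38.8%. The 10% of cells with the most held 83.4% and 89.6% of Hspa1a and Hspa1b UMIs. For Hspa8 the top 10% held 33.7% and 35.7%, and a UMI was seen in 72.0% and 67.6% of cells. Hspa8 was thus spread over most B-like cells and Hspa1a and Hspa1b were not. Hspb1 was rare, with a UMI in 1.66% and 1.22% of B-like cells.

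**Figure D3:**
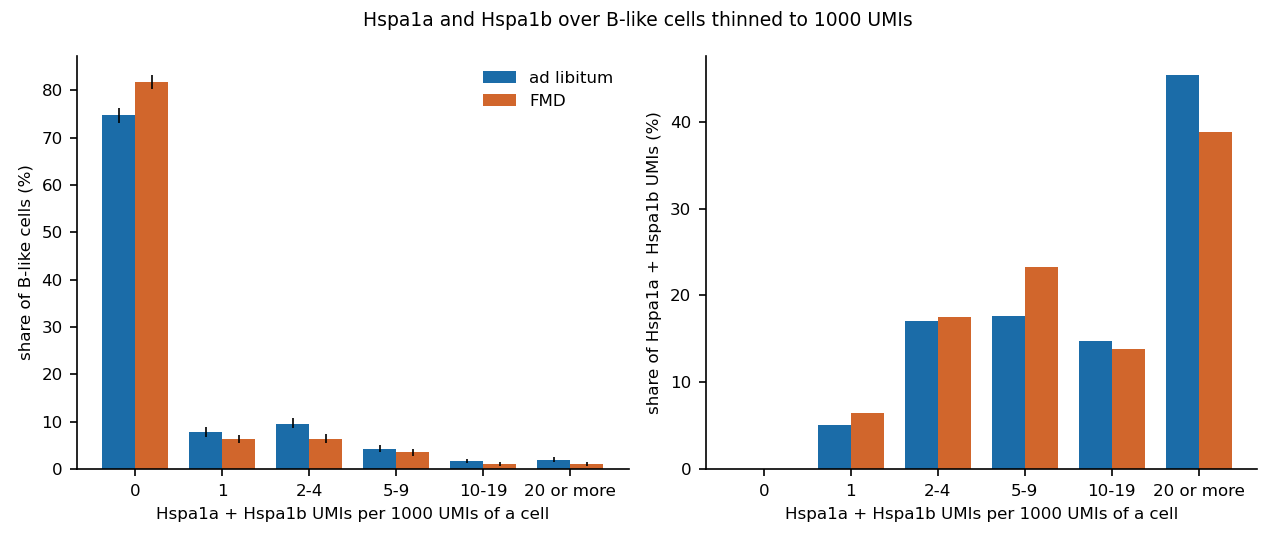
Hspa1a and Hspa1b summed in B-like cells thinned to 1000 UMIs, by number of UMIs in a cell (horizontal axis); the left panel gives the share of cells with exact 95% binomial intervals and the right panel the share of these UMIs that the cells of each bin hold, for the ad libitum (blue) and FMD (orange) libraries. Most cells, 74.7% and 81.8%, have none, and cells with 20 or more hold 45.4% and 38.8% of the UMIs.

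The other members were seen more often in the cells that had Hspa1a or Hspa1b. Dnajb1 was detected in 30.5% of B-like cells with an Hspa1a or Hspa1b UMI and in 9.06% of cells without one in the ad libitum library. The FMD library had 26.6% and 6.13%. Hsph1 was detected in 24.4% against 6.26% and in 25.8% against 5.72%. The contrast was smaller for the genes that most cells express. Hspa8 had 83.5% against 68.1% in the ad libitum library, and Hsp90aa1 had 73.0% against 46.8%. The mitochondrial Hspd1 had 21.8% against 11.4%, and Hspe1 had 56.1% against 37.1%. Hspb1 was seen in 4.72% of cells with Hspa1a or Hspa1b and in 0.62% of cells without. These shares are within cells of 1 library, which are not replicates of a condition.

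Correlations over B-like cells are given as a description over 3020 and 2703 cells, on the log of UMIs per 10000, and all cells of a library share its free RNA. Hspa1a and Hspa1b had Pearson's r of 0.77 and 0.76, Hspa1a and Dnajb1 0.52 and 0.48, and Hsph1 and Hsp90aa1 0.51 and 0.46. Hspd1 and Hspe1, whose starts lie side by side, had 0.34 and 0.29. Among 7296 other genes, the summed members were most like Dnaja1 (0.55 and 0.55), an HSP40 that was not among the 9, and Hsp90ab1 (0.53 and 0.51), the constitutive HSP90. Jun followed at 0.48 and 0.46, then the polyubiquitin gene Ubb (0.40 and 0.37), Klf6 (0.37 and 0.34), Ahsa1 (0.33 and 0.31), which activates HSP90, and Gem (0.29 and 0.32). Dnaja1, Hsp90ab1, Ubb and Ahsa1 are on the list of cytosolic co-chaperones and other heat shock genes, and Jun and Klf6 are on the immediate early list. Over the 20 profiles of 10 classes in 2 libraries the nearest genes were others, from Ercc5 (r of 0.97), Eef1a1 (0.96) and Rbm4 (0.95) through Rack1, St7l, Mndal and Katnbl1 to Prmt3 (0.94). The neutrophil-like profiles lie far below the rest in the summed members, at 1267 and 963.

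Between the libraries, B-like cells had lower levels of the inducible members under FMD. Hspa1a was at 737 and 422 CPM (11474 and 6030 UMIs), a log2 ratio of −0.80 [−0.85, −0.76]. Hspa1b was at 769 and 486, or −0.66 [−0.70, −0.62], and the pair together at 1506 and 909, or −0.73 [−0.76, −0.70]. Dnajb1 was at 219 and 137, or −0.68 [−0.76, −0.60]. These 3 of the 9 members were at least 1.5-fold lower, the size used for every count here, and none was at least 1.5-fold higher. Of 8702 genes with at least 100 UMIs in B-like cells, 0.712% were that much lower and 0.586% that much higher. Without the Apoe Plac8 cluster, where the members were low and which held 17.7% and 29.1% of B-like cells, Hspa1a was at −0.64, Dnajb1 at −0.61 and Hspa1b at −0.51, no longer past 1.5-fold. Since the genes were chosen with these differences known, nothing is read from the count.

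The remaining members were less far apart. Hsph1 was at 163 and 123, or −0.41 [−0.50, −0.32], and Hsp90aa1 at 1162 and 947, or −0.30 [−0.33, −0.26]. Hspd1 was at 212 and 179, or −0.24 [−0.32, −0.17], and its lid Hspe1 at 693 and 622, or −0.16 [−0.20, −0.11]. Hspa8 was nearest to equal among the abundant members, at 1736 and 1576, or −0.14 [−0.16, −0.11]. Hspb1 was at 33.2 and 32.9, with an interval that holds 0 (−0.01 [−0.20, 0.17]). A single FMD cell held 84 of the 469 Hspb1 UMIs of that library, and without the cell with the most Hspb1 UMIs in each library the ratio was −0.20 [−0.39, −0.00]. The median over the 9 members was −0.30, beside 0.00 over all genes. The genes that lay furthest apart were thus the inducible HSP70 and its HSP40, and the constitutive HSP70 lay near the other end.

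**Figure D4:**
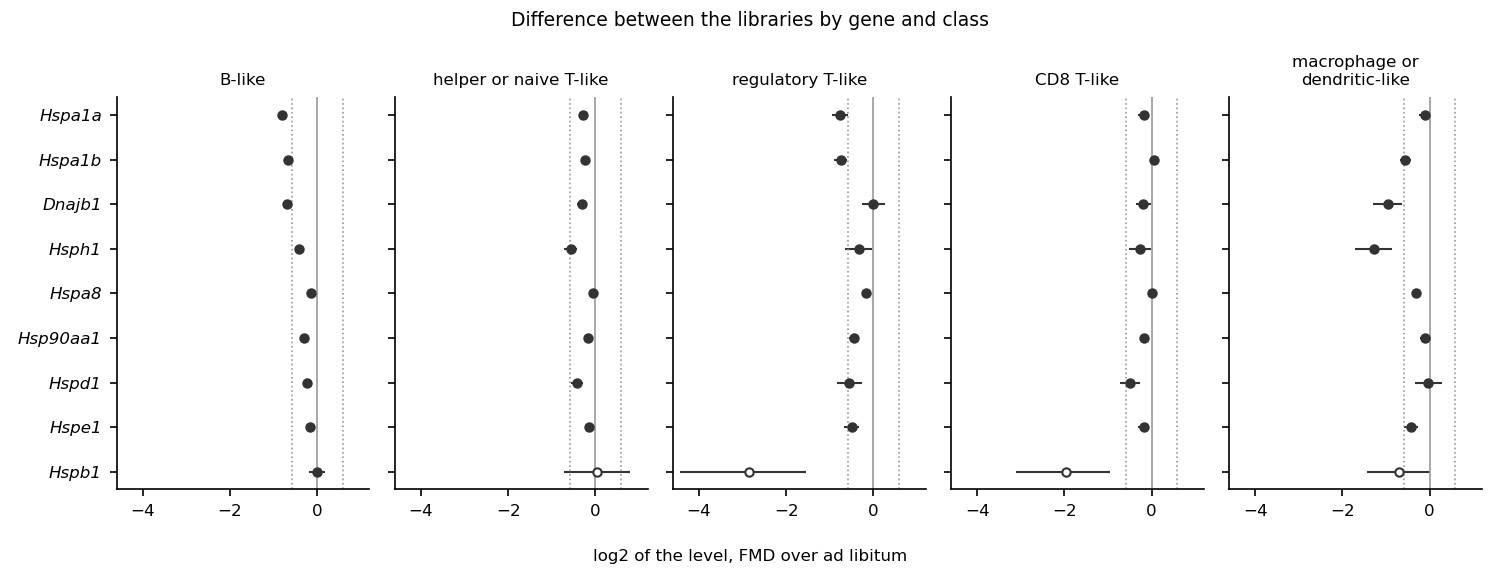
Log2 ratio of the level in the FMD over the ad libitum library (horizontal axis) for each of the 9 genes in 5 classes; bars are 95% counting intervals, dotted lines mark 1.5-fold, and open symbols have fewer than 100 UMIs over both libraries. Hspa1a, Hspa1b and Dnajb1 lie past the lower line in B-like cells (−0.80, −0.66 and −0.68), and none of the 8 genes with filled symbols does in helper or naive T-like cells.

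In T cell classes together all 9 members were lower under FMD as well, where 48.0% of 8344 genes were lower. Hspa1a was at 684 and 544 (−0.33), Hspa1b at 813 and 683 (−0.25), Dnajb1 at 264 and 219 (−0.27), and Hsph1 at 178 and 128 (−0.47). Hspd1 was also at −0.47. Only Hspb1 was past 1.5-fold, at 12.3 and 5.73, or −1.10 [−1.62, −0.60], where 1.13% of 8344 genes were that much lower. Few cells carried it: in CD8 T-like cells its 45 and 10 UMIs lay in 7 and 6 cells, and 1 cell held 21 of the 45. The median over members was −0.27, beside 0.01 over all genes. The summed members were at 6486 and 5698, or −0.19 [−0.20, −0.17], beside −0.34 [−0.35, −0.32] in B-like cells. Whether the 2 ratios differ beyond the spread between mice was not tested. By class the sum was at −0.35 in regulatory T-like and −0.32 in macrophage or dendritic-like cells, near that of B-like cells. It was at −0.17 in helper or naive T-like cells, −0.09 in CD8 T-like cells and −0.11 in the unnamed T cluster.

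Among the T cell classes, none of the 8 members tested in helper or naive T-like cells was 1.5-fold lower, where 1.52% of genes were. Hsph1 came nearest, at 203 and 137 (−0.57). In regulatory T-like cells Hspa1a was at 390 and 230 (−0.76) and Hspa1b at 622 and 369 (−0.75), 2 of 8 members, where 2.13% of genes were. A single ad libitum cell held 30.3% of the Hspa1a UMIs and 1 held 32.4% of the Hspa1b UMIs. Without the top cell of each library the ratios were −0.36 and −0.30, so that neither stayed past 1.5-fold. In CD8 T-like cells 0 of 8 were past it (2.09% of genes), and the ratio of Hspa1b was 0.07. The unnamed T cluster had 1 of 8, Hsph1 at 172 and 84.6 (−1.02), where 1.67% of genes were.

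Macrophage or dendritic-like cells had a different pair past 1.5-fold. Dnajb1 was at 129 and 66.1, or −0.97 [−1.29, −0.64], and Hsph1 at 88.5 and 36.4, or −1.28 [−1.70, −0.87]. These were 2 of 8 members, where 5.33% of genes were that much lower. Hspa1a was at 582 and 538, or −0.11 [−0.24, 0.02], Hspa1b at 628 and 427, or −0.56 [−0.69, −0.42], and Hspa8 at 3622 and 2894, or −0.32. Single ad libitum cells held 30.3% of the Hspa1a and 32.5% of the Hspa1b UMIs. Without the top cell of each library Hspa1a turned to 0.13 [−0.02, 0.29] and Hspa1b was at −0.25, while Dnajb1 was at −0.77 and Hsph1 at −1.21.

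In small classes the inducible HSP70 genes went both ways. Plasma-like cells (93 and 32 cells) had Hspa1a at 1191 and 570 (−1.06) and Hsp90aa1 at 1100 and 647 (−0.77). Germinal center B-like cells (72 and 85 cells) had Hspa1a at 239 and 40.8 (227 and 57 UMIs), or −2.55 [−2.99, −2.12], but 1 cell held 73.1% of the ad libitum UMIs, and without the top cell of each library the ratio was −1.35 [−1.98, −0.73]. In innate lymphoid-like cells (25 and 81 cells), tissue lymphocytes without an antigen receptor, Hspa1a was higher under FMD, at 281 and 1058 (52 and 635 UMIs), or 1.91. Hspa1b was at 535 and 1770 there, or 1.73. In the same cells Hspa8 was at 3360 and 3258 and Dnajb1 at 216 and 192, so the other HSP70 and the HSP40 did not follow. Gamma delta T-like cells (70 and 48) had the same direction, and Hspa1a was at 283 and 518, or 0.87 [0.56, 1.18].

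Within the B-like clusters, Hspa1a, Hspa1b, Dnajb1, Hspd1 and Hspe1 were each lower under FMD in 7 of 8 clusters, Hsph1, Hspa8 and Hsp90aa1 in 6 of 8, and Hspb1 in 5 of 8. The clusters come from the same 2 libraries and are not replicates. In the Jun Klf4 cluster the ratios were modest, at −0.33 [−0.38, −0.28] for Hspa1a, −0.32 for Hspa1b and −0.52 for Dnajb1. None of the 9 members was 1.5-fold lower there, where 1.21% of genes were. Hspa8 was at −0.03 [−0.08, 0.02] and Hsph1 at −0.04 [−0.17, 0.09] in that cluster, and Hspb1 was at 0.44, with 84 of its 278 FMD UMIs in 1 cell.

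Outside that cluster the ratio of Hspa1a was −0.44 in the Apoe Plac8 cluster, −1.03 in Ccl4 Egr1, −0.62 in Got1 Plk2, −1.12 in Rgs1 Basp1, −1.15 in Irf7 Ifi27l2a and −2.63 in Mirt1 Dmxl1. The last 2 leaned on single ad libitum cells (37 of 77 UMIs in Mirt1 Dmxl1), and without the top cell of each library they were −0.82 and −1.96. Only Crip1 Cd52 was higher, at 0.16 [−0.22, 0.54]. In Ccl4 Egr1 3 of the 9 members were 1.5-fold lower, Hspa1a, Dnajb1 (−0.71) and Hspb1 (−1.09), where 1.09% of genes were. Some members went the other way. In Apoe Plac8 Hspb1 was higher, at 7.10 and 26.2 (23 and 124 UMIs), or 1.89 [1.24, 2.60], and 1.61 without the top cell of each library. These UMIs lay in only 14 of 535 and 17 of 787 cells. In Crip1 Cd52, the smallest cluster, Hspa1b was at 692 and 1068 (0.63), Hspa8 at 891 and 1300 (0.54), Hspd1 at 53.6 and 107 (11 and 23 UMIs, 0.99) and the summed members at 3376 and 4453 (0.40). Hspa1a was thus highest in the Jun Klf4 cluster, while its ratio lay further from 0 in 6 of the other clusters. In Got1 Plk2 1 ad libitum cell held 110 of 550 UMIs. Without the top cell of each library the ratio was −0.42 [−0.64, −0.20] there and −0.46 [−0.65, −0.27] in Apoe Plac8. Both intervals overlapped that of the Jun Klf4 cluster without its top cells, −0.36 [−0.41, −0.30].

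The Jun Klf4 cluster made up 23.1% of B-like cells in the ad libitum library and 16.6% in the FMD library. This is not given as a difference in cell numbers, since the immediate early genes that define the cluster also differed between the libraries, with Jun at 789 and 609 in B-like cells. With the cluster shares of the ad libitum library applied to both, the ratio of Hspa1a was −0.45 in place of −0.80, that of Hspa1b −0.35 in place of −0.66 and that of Dnajb1 −0.46 in place of −0.68. That of Hspb1 was 0.25 in place of −0.01. For the summed members it was −0.18 in place of −0.34. More of these UMIs lay in the Jun Klf4 cluster in the ad libitum library, and levels within clusters were also lower under FMD.

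Other lists of heat shock genes had medians closer to equal than that of the 9 members in B-like cells. Hsf1 was at 59.0 and 62.1 CPM, or 0.08 [−0.06, 0.21], and Hsf2, a related factor, at 8.48 and 6.87, or −0.30 [−0.70, 0.08]. Of the 6 heat shock factors and regulators with at least 20 UMIs, these 2 included, 3 were lower and 3 higher. The median of the 6 was −0.08, and 2 of the lower and 0 of the higher had an interval apart from 0. Of 36 cytosolic co-chaperones and other heat shock genes with at least 20 UMIs, 0 were 1.5-fold apart. Of all genes with at least 100 UMIs, 0.712% were that much lower, so nothing is read from this count. Among the 36, 21 were lower and 15 higher, 9 and 1 of them with an interval apart from 0. Their median was −0.04, and the lowest was at −0.57, further apart than the member Hsph1 (−0.41). Dnaja1 was at 433 and 330 (−0.39), and Hsp90ab1 at 2102 and 2039 (−0.04). The 7 TRiC genes had a median of 0.02 and the 11 mitochondrial folding and protease genes one of 0.01. The 16 ER chaperones had a median of 0.10, with 12 higher and 4 lower and none 1.5-fold apart. Hspa5, the ER counterpart of HSP70, was at −0.01. None of these 36, 7, 11 and 16 genes was as far apart as Hspa1a, Hspa1b and Dnajb1. The members were chosen with their lower level under FMD known, so nothing is read from this contrast or from that of the medians.

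Immediate early genes, which respond within minutes to cell activation and to handling, were lower with the members. Of 23 such genes with at least 20 UMIs, 22 were lower under FMD in B-like cells and 1 higher, and the median was −0.32. Egr1 was the one with at least 100 UMIs past 1.5-fold, at 392 and 246 (−0.67). Jun was at −0.37. In T cell classes together 14 were lower and 9 higher, with a median of −0.06, while the members had a median of −0.27. The part of tissue handling in the levels of the 9 genes was not tested.

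Depth and mitochondrial share also moved with the members. When B-like cells were ordered by mitochondrial share and cut into 4 equal groups, Hspa1a and Hspa1b summed were at 2476, 1416, 1001 and 1155 CPM from the lowest to the highest group in the ad libitum library, and at 1341, 898, 641 and 751 in the FMD library. Ordered by UMIs per cell, they were at 2166, 1766, 1725 and 923, and at 1510, 1197, 1006 and 419. The groups of lowest depth and lowest mitochondrial share thus had the highest levels in both libraries, and in each of the 8 pairs of groups the FMD value was lower. The median depth of B-like cells was 5076.5 and 5221 UMIs. The part of depth and mitochondrial share in the difference was not tested.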

How the data were processed

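Per the labels' protocols, leukocytes were sorted from digested colon tissue and libraries were made with 10x Genomics 3′ V3 chemistry. The build GRCm38 and the tools Seurat 2.3.4, Cell Ranger 3.1.0 and CASAVA 1.8 are named, without roles, per the submitters' processing notes. The matrices deposited by the authors hold raw counts (UMIs per gene and barcode, not normalized) for 6089 ad libitum and 5877 FMD barcodes, with 35712762 and 35280790 UMIs and at least 500 UMIs per barcode. The other deposited files name genes and barcodes.

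Barcodes under 200 genes (475 and 441), above 20% mitochondrial UMIs (661 and 694) or with at least 5 UMIs and 0.5 per 1000 of 2 marker panels among those for B, T and myeloid cells (doublets, 83 and 118) were removed. Cells were clustered in scanpy 1.11.5 (2000 variable genes, 30 components, 15 neighbors, leidenalg 0.10.2, resolution 1.0, seed 1) into 25 clusters, without the 9 members and the lists of cytosolic, mitochondrial and TRiC heat shock genes, and named by marker folds. The naming thresholds were set after clusters and cell counts had been seen, so class names are rebuilt and may differ from those of the study. Clusters with a median depth under 1/3 of their library's stayed unnamed, apart from neutrophil-like cells. Innate lymphoid-like (25 and 81 cells), mast-like (9 and 16) and plasmacytoid dendritic-like (4 and 6) cells were left out of the comparison of classes.

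In each library, the counts of a class were added up and set over its UMIs outside immunoglobulin and mitochondrial genes. Intervals are exact Poisson for levels and exact binomial (Clopper-Pearson) for shares and ratios, at 95%. Counts of genes 1.5-fold apart took genes with at least 100 UMIs over both libraries in classes with at least 100 cells in each, and lists took genes with at least 20. The ratio and interval code was tested on simulated data. No edgeR or other model could be fitted with 1 library per diet. Named genes were all members, Hsf1 and Hsf2, list genes 1.5-fold apart in B-like cells (at most 6 per direction), the 8 genes nearest to the summed members over B-like cells and over class profiles, and the leading genes of clusters, of which 1 near gene is not reported here. Dnaja1, Hsp90ab1 and Jun were also followed between libraries as near genes, and Hspa5 was chosen after its value was seen. Members and lists were chosen with earlier results of these data known. Alternatives covered denominator, thinning, weighting, doublets, genes in the background, the fold and cells or clusters left out. RefSeq promoter windows came from GRCm38.p6 and positions from the GRCm38 annotation.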

Additional observations from a re-analysis of the deposited data

Results flagged for a closer look

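Classes that differed in opposite directions between the libraries, each by at least 1.5-fold and with an interval apart from 0, were listed, and the difference between the classes was not tested. For Hspa1a the log2 ratio was 0.87 in gamma delta T-like cells and 1.91 in innate lymphoid-like cells. It was −0.80 in B-like cells, −2.55 in germinal center B-like cells, −1.06 in plasma-like cells and −0.76 in regulatory T-like cells.

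For Hspa1b the ratio was 1.73 in innate lymphoid-like cells, against −0.66 in B-like, −1.34 in germinal center B-like, −0.69 in plasma-like and −0.75 in regulatory T-like cells. For Hsp90aa1 it was 0.81 in mast-like cells (9 and 16 cells) and −0.77 in plasma-like cells (93 and 32 cells).

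A single cell bore much of several of these sums. The ad libitum library had 54.0% of its gamma delta T-like Hspa1a UMIs in 1 cell, and without the top cell of each library the ratio was 1.60. Without the top cell of each library the Hspa1a ratio was 2.28 in innate lymphoid-like cells, −1.35 in germinal center B-like cells, −1.23 in plasma-like cells and −0.36 in regulatory T-like cells. Without top cells the Hspa1b ratio was 1.84 in innate lymphoid-like, −1.22 in germinal center B-like, −1.06 in plasma-like and −0.30 in regulatory T-like cells. The Hsp90aa1 ratios were 1.06 in mast-like and −0.96 in plasma-like cells in the same way. The direction held in each of these, while the regulatory T-like values were no longer past 1.5-fold.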

How the results depend on the processing

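No paired analysis was possible because each diet has 1 library and no replicate. No alternative turned the direction of a summed ratio. The summed members in B-like cells (−0.34) were at −0.32 with cells thinned, −0.31 as a mean per cell, −0.21 without the 10% of cells with the highest member share, −0.19 without the Jun Klf4 cluster and −0.27 without the Apoe Plac8 cluster. Leaving out those cells or clusters, or adding the unnamed T cluster to the T cells, was chosen after seeing the data. The 3 members at least 1.5-fold lower in B-like cells became 0 at 2-fold and 1 without the Jun Klf4 cluster, where Hspa1b was at −0.37 and Dnajb1 at −0.43, and were 2 to 4 otherwise. In T cells the sum (−0.19) was at −0.23 with cells thinned, −0.21 per cell, −0.14 without the top 1% of cells, −0.23 with doublets kept, −0.070 without the top 10% and −0.18 with the unnamed T cluster added. The sum in B-like over T cells of the ad libitum library (−0.18) was at −0.20 over all UMIs, −0.034 with median-of-ratios scaling, −0.21 thinned, −0.24 without the top 1%, −0.44 without the top 10%, −0.036 without the Apoe Plac8 cluster and −0.72 without the Jun Klf4 cluster. Among B-like cells Hspa1a stayed between −0.99 and −0.64 and Hspb1 ranged from −0.60 to 0.15. Small classes and Hspb1 are limited by their UMIs.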
